A study of Mus musculus with 12 samples.

Results

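Among 12 libraries of sorted macrophages from regenerating mouse muscle, 2 anti-TNF libraries, titled 40C1 and 40C2, stood apart from all others on the principal component that carried most of the variance. They were selected on that position, from log2 levels of all tested genes: their PC1 scores were 54.2 and 45.9, against -3.47 for the next library and -20.8 for the last. 40C1 came from Ifngr1 wt/null muscle, which keeps 1 intact allele of the IFN-γ receptor chain, and 40C2 from Ifngr1 null/null muscle, which keeps none. The comparison group was the other 4 anti-TNF libraries, 40A2 and 46C7 (wt/null) and 40A3 and 46C6 (null/null). Because every gene entered the component, the differences between the 2 libraries and the other 4, and between 40C1 and 40C2, are descriptions without a test.

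The study addressed how IFN-γ acts in muscle repair and fibrosis. In all animals, Ifngr1 wt/null or null/null, the tibialis anterior was injured with the snake toxin notexin, and an antibody that neutralizes TNF or an isotype control was injected into the abdomen each day. On day 5, live CD45+ CD11B+ cells lacking LY6G and SIGLECF were sorted and their polyadenylated RNA was sequenced, with 3 libraries in each of the 4 groups. All mice carried at least 1 null Ifngr1 allele, so no group with 2 intact alleles is described by the labels, and the labels give neither age nor the cell types in which the gene was lost. They also do not say that each library came from a separate mouse, so p-values measure the spread between these samples, which may be technical.

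Injured muscle draws in blood monocytes that become inflammatory macrophages, clear debris and later turn into repair macrophages. A CD11B+ gate also takes up monocytes and part of the dendritic cells, which present antigen to T cells. IFN-γ signals through its receptor to chemokine, antigen presentation and GTPase genes, and TNF acts largely through NF-κB. Osteoclasts are bone-resorbing cells of the same myeloid lineage that secrete the proteases MMP9 and cathepsin K.

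**Figure D1:**
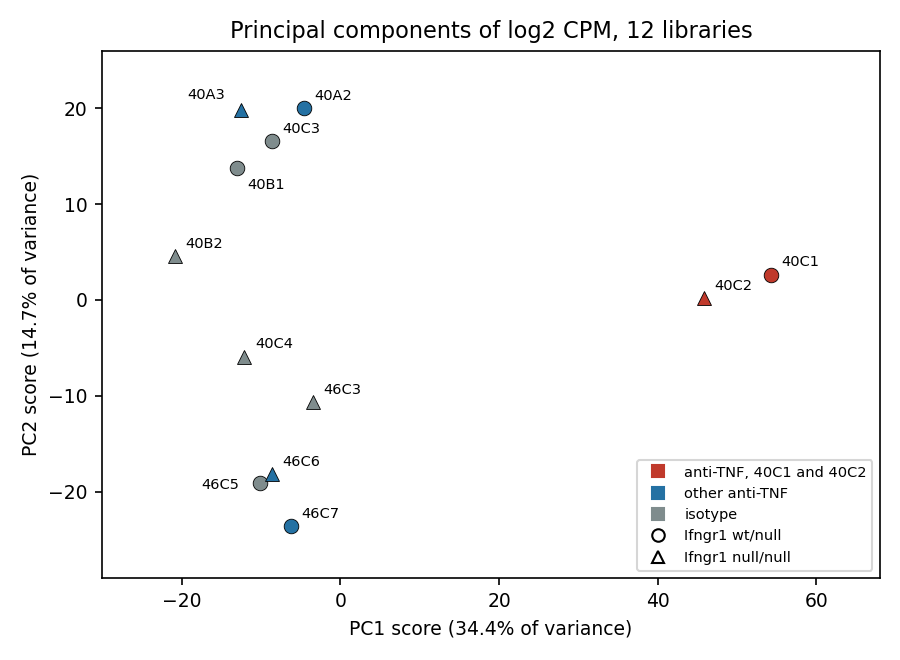
Scores of the 12 libraries on PC1 (34.4% of variance) and PC2 (14.7%) of log2 CPM, coloured by antibody set and shaped by genotype. 40C1 and 40C2 lie at 54.2 and 45.9 on PC1, and the other 10 libraries lie between -20.8 and -3.47.

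The 2 libraries held 25.7 M and 26.5 M counts, within the 23.2 M to 29.9 M of the other 10, and 14998 and 14832 genes with a count. The share of counts in the 20 most abundant genes was 18.9% in 40C1 and 17.9% in 40C2, against 15.6% to 18.0% elsewhere. The receptor transcript matched the labels. Ifngr1, counts of which were still present in null/null samples, stood at 250 CPM (counts per M counts) in 40C1, and at 226 to 249 CPM in the 5 other wt/null libraries. It stood at 119 CPM in 40C2, above the 83.3 to 90.2 CPM of the 5 other null/null libraries. Titles begin with 40 or 46, a number the labels do not explain, and among the 10 other libraries PC2 ran from -23.6 to -10.7 in the 4 titled 46 and from -5.92 to 20.0 in the 6 titled 40. 40C1 and 40C2 share the letter C with the isotype libraries 40C3 and 40C4, whose PC1 scores were -8.58 and -12.1.

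The defining markers of the labelled cell type were abundant in both libraries. Csf1r, the receptor for the macrophage growth factor CSF1, was at 3497 and 3352 CPM against 3157 to 3805 CPM in the other 4 anti-TNF libraries. Adgre1, which encodes F4/80, was at 1694 and 1469 CPM against 1454 to 1783 CPM. Of 15 core macrophage genes, only the Fc receptor gene Fcgr4 was counted as different in both, at 295 and 178 CPM against 84.4 to 155 CPM. Summed, the 15 genes gave 26734 and 25112 CPM, below the 26988 to 30841 CPM of the other 4, and 40C2 lay also below the isotype minimum of 26127 CPM.

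A gene was counted as higher or lower in both libraries when both lay outside the range of the other 4 and the mean log2 CPM differed by at least 1, a 2-fold change. By this rule 326 of 12981 tested genes were higher in both (2.51%) and 397 were lower in both (3.06%). These shares are the background against which each gene group is read, and the median difference over all genes was 0.00 on the log2 scale. Set against all 10 other libraries by the same rule, 291 genes were higher (2.24%) and 321 lower (2.47%). These included 264 of the 326 genes (81.0%) and 307 of the 397 (77.3%). Genes higher in both departed by a median log2 of 1.63 in 40C1 and 1.28 in 40C2, and 40C1 was the higher of the pair in 245 of 326. Genes lower in both departed by -1.37 and -1.48, and 40C1 was the lower in 168 of 397. A further 4334 genes with counts were below the expression filter, and 177 of them met the rule for higher and 83 for lower.

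Dendritic cell genes were among the groups that were higher in both libraries. Flt3, the receptor for the growth factor of dendritic cells, stood at 87.3 CPM in 40C1 and 89.3 CPM in 40C2. In the other anti-TNF libraries it stood at 32.0 (40A2), 32.1 (46C7), 24.9 (40A3) and 31.5 CPM (46C6), and the 6 isotype libraries ranged from 20.4 to 27.9 CPM. The 2 libraries were alike and did not overlap with any other, with a mean 2.94-fold difference from the 4. Cd209a, a lectin of monocyte-derived and type 2 dendritic cells, stood at 124 and 97.8 CPM against 58.6, 54.9, 50.2 and 65.8 CPM. It lay just outside the counting rule: the groups did not overlap, but the log2 difference was 0.95.

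Of 10 genes shared by dendritic cells, 6 were higher in both and 0 lower, with a median log2 difference of 1.05. Spib, a transcription factor of the plasmacytoid lineage, reached 15.2 and 11.7 CPM against 2.14 to 3.15 CPM in the other 4. Dpp4, a surface peptidase, reached 63.2 and 58.5 CPM against 14.4 to 20.1 CPM. Itgax, which encodes CD11c and is also made by macrophages, went the other way at 695 and 800 CPM against 808 to 1303 CPM, a log2 difference of -0.52. The other counted members were the transcription factor gene Bcl11a and Haao and Kmo, enzymes of tryptophan breakdown. Summed over the 10 genes, the level was 1305 and 1285 CPM, inside the 1074 to 1639 CPM of the other 4, since Itgax made up most of the sum.

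Genes that dendritic cells switch on as they mature and migrate to lymph nodes were counted at a share far above the background. Of 16 tested, 9 were higher in both and 0 lower, with a median of 1.26, and 1 more, Ccl19, was below the filter. Ccr7, the receptor that guides cells to lymph nodes, was at 78.3 and 70.5 CPM against 22.1 to 24.8 CPM in the other 4 and 14.9 to 44.3 CPM under isotype. Fscn1, an actin-bundling protein, was at 105 and 109 CPM against 31.9 to 34.5 CPM. Cacnb3, a calcium channel subunit, was at 40.4 and 38.1 CPM against 7.97 to 11.7 CPM. These 3 genes were nearly equal in 40C1 and 40C2, and the median difference between the 2 libraries over the list was 0.09. Ccl17 did not follow, at 0.778 and 1.67 CPM against 1.56 to 5.84 CPM.

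The dendritic cell subsets were represented unevenly. For type 2 cells, 5 of 17 tested genes were higher in both and 0 lower, with a median of 0.74. They were Cd7, Ffar2, Klrd1, Tnfsf9 and Ltb, a lymphotoxin subunit, the last at 8.76 and 7.69 CPM against 2.33 to 2.99 CPM. Transcripts of T and natural killer cells, described below, were higher in the same libraries, and their part in this count was not tested. Mgl2, a lectin of type 2 cells and some macrophages, was lower without meeting the rule, at 34.9 and 48.2 CPM against 62.3 to 94.7 CPM. For type 1 cells, 2 of 12 were higher in both, with a median of 0.48. Clec9a, the receptor for dead cells on type 1 cells, was at 16.5 and 6.402 CPM against 1.32 to 4.74 CPM, and Xcr1 was at 5.36 and 2.69 CPM against 0.661 to 3.999 CPM, so that 40C2 overlapped the others. For plasmacytoid cells, 4 of 10 were higher in both with a median of 0.94. Siglech, a surface lectin of these cells, was at 15.9 and 10.4 CPM against 3.22 to 6.07 CPM, and the homing receptor gene Ccr9 at 6.18 and 3.18 CPM against 0.467 to 0.683 CPM. In bulk libraries more cells of a type and more RNA per cell cannot be told apart.

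**Figure D2:**
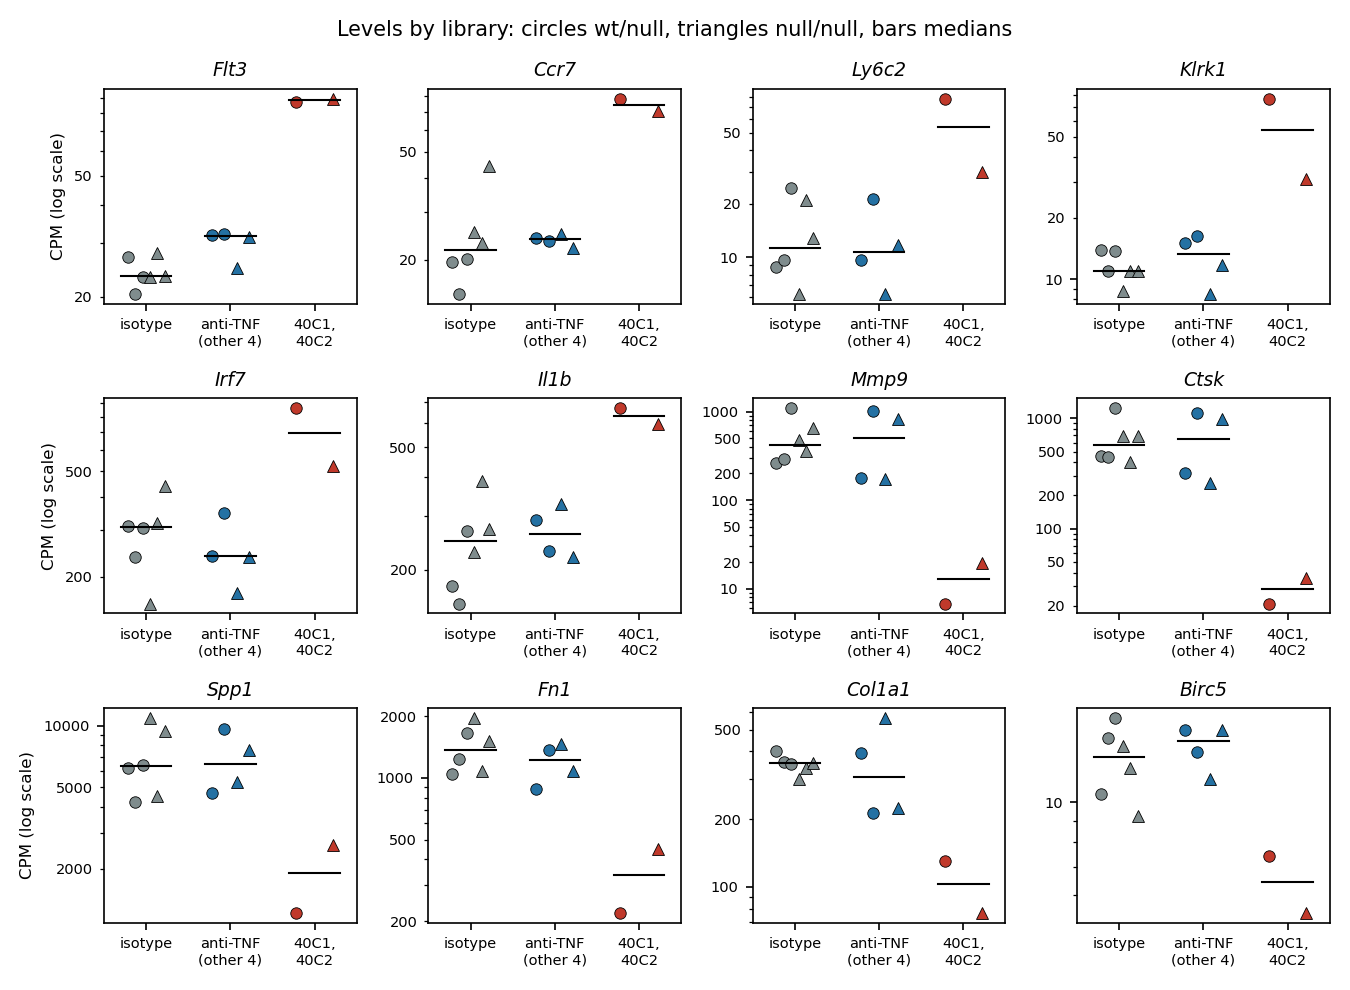
Level in CPM on a log axis of 12 genes in each library, with isotype, other anti-TNF and divergent libraries side by side, circles for wt/null, triangles for null/null and bars for medians. Flt3, Ccr7, Ly6c2 and Klrk1 of the top row lie above all other libraries in 40C1 and 40C2. Mmp9 and Ctsk lie at 6.80 to 35.9 CPM in these 2, where no other library is below 171 CPM.

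Monocyte genes were mixed: some were higher in both libraries and some lower in both, and several of these also differed between 40C1 and 40C2. Of 19 tested genes of Ly6C-high inflammatory monocytes, 4 were higher in both and 2 lower, with a median of 0.27. Ly6c2, which encodes the Ly6C antigen, was at 77.8 and 30.3 CPM against 9.64, 21.2, 6.22 and 11.7 CPM. Plac8, a marker of freshly arrived monocytes, was at 141 and 67.5 CPM against 9.64 to 38.7 CPM. In both genes the level in 40C1 was the higher. Ccr2, the receptor that draws monocytes into tissue, was at 796 and 839 CPM against 415 to 654 CPM, without reaching 2-fold. Fn1 (fibronectin) was lower in both, at 219 and 451 CPM against 881 to 1462 CPM, and S100a4 at 145 and 153 CPM against 271 to 411 CPM. The other group, Ly6C-low patrolling monocytes, had 2 of 15 genes higher in both, Cd300e and Pglyrp1, and 0 lower, and 0 were counted as higher when each library was set against its own genotype and 4 against 40A2 and 40A3 alone.

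Ly6a had the largest difference among the higher genes that passed the level minimum for naming. This gene of the Sca-1 antigen, known from stem and stromal cells and induced by interferon, stood at 164 and 70.8 CPM against 15.8, 17.7, 8.36 and 7.70 CPM, and at 5.00 to 17.3 CPM under isotype. The mean fold was 9.22. Next came Ccl5, a chemokine for T cells and monocytes, at 112 and 59.4 CPM against 12.99 to 14.8 CPM, and Slc4a8, a bicarbonate transporter, at 22.1 and 20.0 CPM against 3.38 to 4.80 CPM. Apol7c, an apolipoprotein L family member, measured 17.5 and 13.7 CPM against 2.54 to 4.73 CPM. Further genes of this set were Rnase6, an antimicrobial ribonuclease, at 86.6 and 32.5 CPM against 10.3 to 17.4 CPM, Gpr141 at 61.9 and 28.1 CPM against 5.29 to 19.1 CPM, Mreg at 10.6 and 11.8 CPM against 2.21 to 3.77 CPM, and Sirpb1a at 76.0 and 64.4 CPM against 17.1 to 22.7 CPM. Ly6 family genes lie in a cluster of near copies, so the split of their counts is uncertain.

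Osteoclast-type genes were lower in both libraries, and Mmp9 had the largest difference among the lower genes that passed the level minimum for naming. Mmp9, a secreted protease that digests collagen fragments, stood at 6.80 CPM in 40C1 and 19.2 CPM in 40C2. In the other anti-TNF libraries it stood at 176 (40A2), 1025 (46C7), 171 (40A3) and 826 CPM (46C6), and under isotype at 264 to 1091 CPM. Both libraries lay far under all 10 others, a 34.7-fold lower mean than the 4. Ctsk, the collagen-degrading cathepsin of osteoclasts, stood at 21.0 and 35.9 CPM against 318, 1124, 261 and 982 CPM, 20.0-fold lower, and at 400 to 1233 CPM under isotype.

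Of 20 osteoclast and cell fusion genes, 8 were lower in both and 0 higher, with a median of -0.95. Slc9b2, a sodium-proton exchanger of osteoclasts that is outside this list, was at 0.901 and 2.96 CPM against 17.5 to 67.5 CPM. Rufy4, which acts in autophagy and is also outside the list, was at 0.287 and 0.796 CPM against 3.89 to 18.1 CPM. Src, a kinase needed for bone resorption, was at 9.95 and 9.28 CPM against 19.2 to 59.6 CPM, and the integrin gene Itgb3 at 3.23 and 3.37 CPM against 5.21 to 25.7 CPM. Dcstamp, which is needed for cell fusion, was at 4.91 and 4.21 CPM against 5.84 to 17.9 CPM. Siglec15 and Oscar, receptors of osteoclast precursors, had 0 counts in 40C2 and 0.0409 CPM each in 40C1, against 1.05 to 3.42 CPM and 0.156 to 6.37 CPM. Smaller differences were seen in Tcirg1, a proton pump subunit, at 544 and 599 CPM against 571 to 739 CPM, and in Tnfrsf11a (RANK), at 61.1 and 69.5 CPM against 62.9 to 81.6 CPM. In both genes 40C1 lay just below the range and 40C2 within it.

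Among the other 4 anti-TNF libraries, the 2 titled 46 had the higher Mmp9, Ctsk, Src and Itgb3. Under isotype 46C5 had the highest level of all 4 genes, but 46C3 had the lowest Ctsk, at 400 CPM, and Mmp9 at 360 CPM, below 40B2 (474 CPM) and 40C4 (659 CPM). Against 40A2 and 40A3 alone, 5 of the 20 genes were counted as lower in both, Mmp9 was 15.1-fold lower and Ctsk 10.5-fold lower. The part of the title number in the remaining differences was not tested.

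Mmp9 and Ctsk varied together in the libraries that were not selected, and so did Flt3 and Cd209a. Those libraries did enter the component used for the choice. Over the 10 other libraries, Pearson's r of log2 CPM was 0.976 for Mmp9 and Ctsk (Spearman's rho 0.939, permutation p = 3e-05 and 0.00023, adjusted over the 6 pairs 0.00018 and 0.00138). For Flt3 and Cd209a r was 0.870 (rho 0.806, permutation p = 0.00193 and 0.00745, adjusted 0.00579 and 0.0224). The rank relation of Flt3 and Cd209a was less firm: rho was 0.685 with group means removed (permutation, adjusted p = 0.102). Its exact permutation adjusted p was 0.0765 without 40C3 or without 40A3 and 0.0517 without 46C3. Without the 2 libraries farthest from the median of the x-axis gene, r was 0.955 and 0.892. The 4 pairs between the groups gave r between -0.21 and 0.07, with an adjusted permutation p of 0.859 each. Within the 6 libraries titled 40, r was 0.960 for Mmp9 and Ctsk (exact permutation, adjusted p = 0.0667) and 0.858 for Flt3 and Cd209a (exact permutation, adjusted p = 0.0778), and Cd209a and Mmp9 gave -0.84 (exact permutation, adjusted p = 0.0778). The 4 libraries titled 46 were too few for a correlation.

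**Figure D3:**
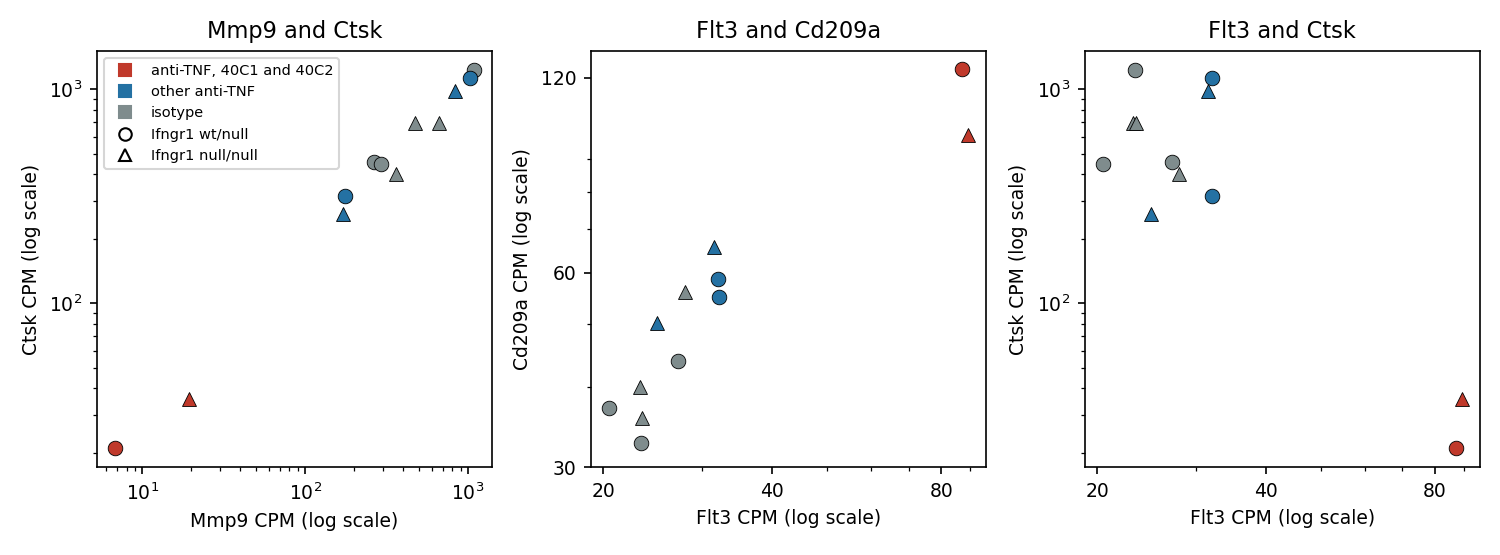
Levels in CPM, on log axes, of Mmp9 and Ctsk, of Flt3 and Cd209a, and of Flt3 and Ctsk, each point being 1 of the 12 libraries. The 10 other libraries follow a line in the left and middle panels (r = 0.976 and 0.870) and not in the right panel (r = 0.07), and 40C1 and 40C2 lie at the ends of all 3.

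Part of the matrix genes were lower in both libraries. Of 29 matrix remodelling genes, 7 were lower and 0 higher, with a median of -0.49. All of the 7 except Adam12 are also counted in other lists. Mmp9 and Itgb3 are in the osteoclast list and Col1a1 and Col3a1 in the fibroblast list. Fn1 is in the Ly6C-high monocyte list and Spp1 in the lipid list. Spp1 (osteopontin), a matrix protein that macrophages secrete in quantity, was at 1212 and 2610 CPM against 4671, 9593, 5324 and 7607 CPM, and under isotype at 4223 to 10930 CPM. It was lower 3.67-fold on average, and no library overlapped. Angptl2, a secreted angiopoietin-like protein outside the list, was at 14.5 and 17.2 CPM against 67.5 to 101 CPM. Mmp14 and Adam17, a membrane protease and the TNF-releasing protease, did not meet the rule, at 352 and 410 CPM against 400 to 483 CPM and at 350 and 335 CPM against 323 to 380 CPM.

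Fibroblast transcripts were present in the sort and, as a group, lower in these libraries. Of 16 markers of fibro-adipogenic progenitors and fibroblasts, 7 were lower in both, 1 (Ly6a) was higher, and the median was -1.06. Col1a1, a chain of type I collagen, was at 130 and 76.5 CPM against 394, 212, 564 and 223 CPM, and Tnc (tenascin C), which is outside the list, at 4.50 and 3.30 CPM against 13.2 to 49.5 CPM. Pdgfra, the defining receptor of these progenitors, was at 2.21 and 2.24 CPM against 2.09 to 5.95 CPM, overlapping the others. The 16 markers summed to 1130 and 829 CPM against 1353 to 2688 CPM, and to 1720 to 2187 CPM under isotype. Against 40A2 and 40A3 alone, 11 of the 16 counted as lower. Of 10 pericyte and smooth muscle genes 2 were lower in both, Cspg4 (the NG2 proteoglycan) at 5.73 and 9.09 CPM against 35.9 to 67.4 CPM and Pdgfrb, a growth factor receptor, at 3.64 and 2.27 CPM against 4.52 to 14.4 CPM. These 10 summed to 52.4 and 55.3 CPM against 83.8 to 126 CPM. The part of fibroblast and pericyte RNA in the matrix result was not tested.

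Cell cycle genes were lower as a group. Of 36 tested, 9 were lower in both and 0 higher, the median was -0.70, and 35 of 36 had a negative difference. Bub1, a mitotic checkpoint kinase, was at 3.40 and 2.54 CPM against 6.22 to 9.38 CPM, Ccnb1 (cyclin B1) at 2.99 and 2.46 CPM against 5.87 to 8.60 CPM, and Birc5 (survivin) at 7.41 and 5.42 CPM against 11.4 to 14.9 CPM. The replication gene Mcm6 was at 45.5 and 41.3 CPM against 71.4 to 77.0 CPM, and Pcna at 106 and 97.4 CPM against 99.6 to 113 CPM. The count was 2 when each library was set against its own genotype and 4 against 40A2 and 40A3 alone. Most of these genes fell short of a 2-fold difference while leaning the same way.

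Metabolic groups showed smaller shifts. All 20 cholesterol synthesis genes had a negative difference, with a median of -0.58, and 2 met the rule, among them Sqle, which oxidizes squalene, at 6.06 and 6.97 CPM against 11.9 to 22.8 CPM. Oxidative phosphorylation had 25 of 27 genes with a negative difference, a median of -0.20, and 0 that met the rule. Glycolysis had 1 of 19 lower in both, Aldoc, at 3.48 and 3.52 CPM against 8.13 to 14.9 CPM. In the lysosome and proton pump group 1 of 30 was lower, Atp6v0d2, the pump subunit linked to cell fusion, at 111 and 134 CPM against 208 to 386 CPM. Hypoxia genes had 1 of 16 lower, P4ha2, and 0 of 14 iron handling and 0 of 19 endoplasmic reticulum chaperone genes met the rule in either direction.

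Lipid-handling and repair genes changed selectively. Of 26 lipid and efferocytosis genes, 3 were lower in both and 0 higher, with a median of -0.06. Cd9, a tetraspanin, was at 260 and 296 CPM against 658 to 764 CPM, and Mfge8, a bridge between macrophages and dying cells, at 63.0 and 90.2 CPM against 151 to 319 CPM. Apoe, the main lipid carrier of macrophages, was at 38988 and 41048 CPM against 31881 to 37675 CPM. Of 22 reparative signal genes, Il10, an anti-inflammatory cytokine, and Areg were higher and Pdgfa was lower, Il10 at 44.3 and 29.2 CPM against 11.6 to 24.6 CPM and Pdgfa at 10.6 and 14.2 CPM against 26.5 to 35.2 CPM. Igf1, a growth factor for muscle, was at 180 and 181 CPM against 212 to 255 CPM, without reaching 2-fold. Resident-type macrophage genes had 2 of 22 lower, Cd209f and Vsig4, both under 7 CPM in every anti-TNF library, and C1qa was at 3481 and 2997 CPM against 2904 to 3378 CPM.

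Inflammatory genes were higher in both. Of 33 NF-κB targets tested, 8 were higher and 0 lower, with a median of 0.66. Il1b, the interleukin-1β gene, was at 669 and 595 CPM against 291, 230, 328 and 220 CPM, and at 156 to 389 CPM under isotype, so that 40C1 and 40C2 lay above all 10. Nlrp3, the inflammasome sensor, was at 103 and 87.2 CPM against 37.2 to 51.6 CPM, and Ptgs2, the inducible cyclooxygenase, at 173 and 153 CPM against 53.6 to 97.2 CPM. Il12b, a subunit of a cytokine that induces IFN-γ, was at 10.6 and 5.83 CPM against 2.94 to 3.57 CPM. The NF-κB subunits were closer, Nfkb1 at 264 and 229 CPM against 210 to 224 CPM and Nfkb2 at 154 and 162 CPM against 141 to 167 CPM. The count was 3 with each library set against its own genotype and 4 against 40A2 and 40A3 alone.

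Tnf, the target of the antibody, was at 105 CPM in 40C1 and 42.1 CPM in 40C2, against 31.3, 24.1, 40.8 and 25.01 CPM in the other anti-TNF libraries and 20.7 to 34.3 CPM under isotype. 40C1 stood apart, while 40C2 lay just above 40A3. Its receptor genes did not move with it: Tnfrsf1a was at 214 and 204 CPM against 186 to 211 CPM and Tnfrsf1b at 722 and 686 CPM against 587 to 727 CPM. Of 24 chemokines, 4 were higher in both and 1 lower, including the monocyte attractants Ccl12 at 52.8 and 43.5 CPM against 17.0 to 33.2 CPM and Ccl7 at 44.3 and 42.1 CPM against 18.9 to 22.7 CPM. Of 16 complement genes, Cfb, the factor B of the alternative pathway, was higher at 590 and 371 CPM against 162 to 198 CPM. Immediate early and stress genes had a positive difference in 23 of 23, with a median of 0.52, and Egr1 alone met the rule, at 224 and 123 CPM against 67.6 to 95.0 CPM.

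Transcripts of T and natural killer cells were higher in both libraries at low levels. Of 29 listed genes 21 passed the filter and 8 did not, and several passed through 40C1, 40C2 and 1 other library, so that their count and median carry no weight and are not given. Lck, the kinase of the T cell receptor, was at 5.04 and 2.77 CPM against 0.117 to 0.595 CPM, and Cd8a at 5.65 and 2.99 CPM against 0.304 to 1.09 CPM. Gzma, a granzyme of cytotoxic cells, was at 5.24 and 1.82 CPM, with 0 counts in 46C7 and 40A3 and 0.223 and 0.0759 CPM in 40A2 and 46C6. Cd3d and Cd3e, which define T cells, were below the filter, at 1.31 and 1.17 CPM against at most 0.152 CPM and at 0.696 and 0.720 CPM against at most 0.335 CPM. Klrk1, the NKG2D receptor, was at 76.8 and 31.1 CPM against 8.48 to 16.3 CPM. The list summed to 377 and 276 CPM against 229 to 287 CPM, so that 40C2 overlapped: most of the sum was Cd4 and Il7r, which macrophages also express and which were at 145 and 110 CPM against 97.2 to 146 CPM and at 79.2 and 90.8 CPM against 102 to 113 CPM.

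Ifng itself, made by T and natural killer cells, was at 2.91 and 1.48 CPM against 0.335, 0.427, 0.117 and 0.114 CPM, and at most 0.278 CPM under isotype. Both libraries lay above the other 10. The part of the lymphocyte transcripts in the interferon and inflammatory results was not tested.

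Other cell types that a sort can carry over showed mixed values. The mast cell proteases Tpsb2 and Cpa3 had 0 counts in 40C1, and 0.303 and 0.417 CPM in 40C2, against 0.744 to 1.59 CPM and 0.558 to 1.29 CPM, while Kit, also made by progenitors, was higher at 21.2 and 14.2 CPM against 4.08 to 7.88 CPM. Of 10 tested neutrophil genes (6 more were below the filter), Retnlg was higher in both and Ltf and Mmp9 lower, and S100a8, a defining neutrophil gene, was at 0.532 and 1.48 CPM against 1.27 to 1.75 CPM. Summed, that list gave 219 and 259 CPM against 320 to 1171 CPM, a range set by Mmp9. Of 4 tested eosinophil genes 0 were counted, and Siglecf, the sorted-out antigen, was at 6.43 and 5.64 CPM against at most 11.4 CPM. The B cell markers Ms4a1 and Cd79a were at or below 0.409 CPM in both, and Jchain, of plasma cells, was at 16.9 CPM in 40C1 and 0.152 CPM in 40C2. Muscle fibre genes had 0 of 20 counted, and the list summed to 186 and 187 CPM against 134 to 212 CPM. Vcam1, an adhesion molecule of endothelium, satellite cells and some macrophages, was at 168 and 142 CPM against 37.9 to 67.8 CPM, and the endothelial receptor Kdr at 16.6 and 16.9 CPM against 5.37 to 9.94 CPM, with 2 of 13 endothelial genes higher in both.

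**Figure D4:**
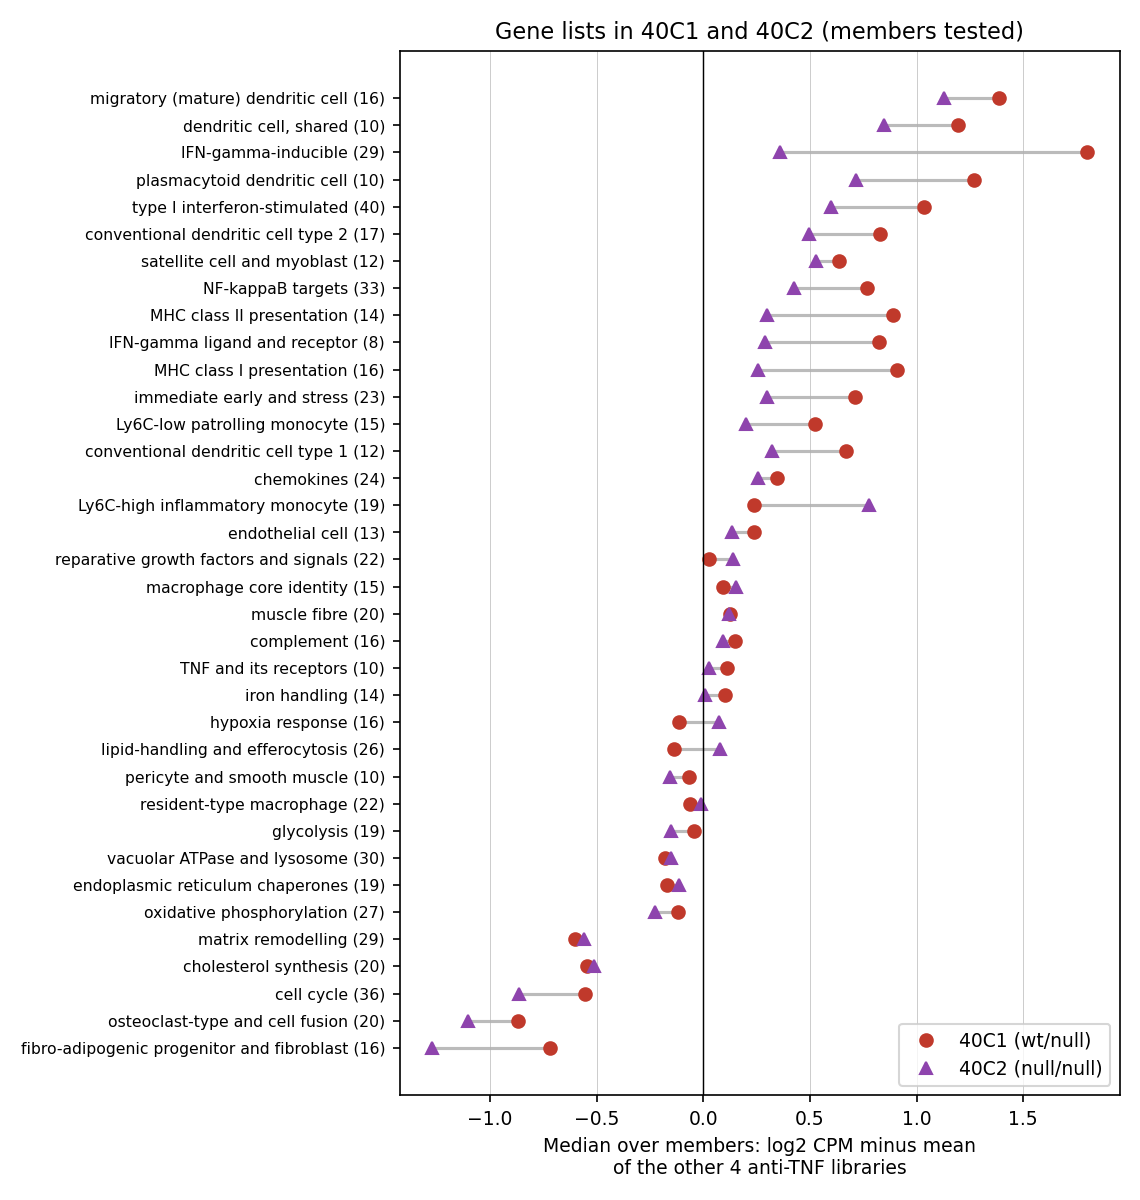
Median over the tested members of each gene list of log2 CPM minus the mean of the other 4 anti-TNF libraries, for 40C1 (circles) and 40C2 (triangles), with the number of tested members in brackets, for lists with at least 8 tested and at most 3 members below the filter. Migratory and shared dendritic lists lie to the right in both libraries and osteoclast, fibroblast and cell cycle lists to the left, while the IFN-γ-inducible list has a median of 1.80 in 40C1 and 0.36 in 40C2.

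Between the 2 libraries, 169 of 11602 genes (those averaging 1 CPM or more over the 12 libraries on the log scale) were at least 2-fold higher in 40C1 (1.46%) and 85 were higher in 40C2 (0.733%). With 1 library on each side there was no replicate check, and genotype and library cannot be told apart. Of the 169, 31 were also counted as higher in both libraries, 15 as lower in both and 123 as neither. Of the 85, 3 were higher in both, 17 lower in both and 65 neither.

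Most tested IFN-γ-inducible genes were higher in 40C1. Of 29 (3 more were below the filter), 18 were higher in 40C1 and 0 in 40C2, with a median log2 difference of 1.67 against 0.01 over all genes. Cxcl9, an IFN-γ-dependent chemokine for activated T cells, was at 118 CPM in 40C1 and 4.28 CPM in 40C2. The other wt/null libraries had 17.0 and 9.16 CPM under anti-TNF and 12.8, 39.8 and 20.8 CPM under isotype, and the null/null libraries 3.07 and 2.998 CPM and 3.50, 5.44 and 5.46 CPM. So 40C1 exceeded every wt/null library and 40C2 lay within the null/null range, a 27.2-fold difference. Gbp2, a guanylate-binding GTPase against intracellular microbes, was at 525 and 63.9 CPM, with 103 and 80.3 CPM in the other wt/null anti-TNF libraries and 31.1 and 37.2 CPM in the null/null ones.

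Several of these genes were also higher in 40C2 than in 40A3 and 46C6, the other null/null anti-TNF libraries, although below 40C1. Serpina3g, a protease inhibitor, was at 159 and 18.0 CPM, against 20.4 and 16.0 CPM in the wt/null anti-TNF libraries and 7.19 and 8.01 CPM in the null/null ones, which put 40C2 1.24 above the latter on the log2 scale. Iigp1, an immunity-related GTPase, was at 147 and 15.9 CPM against 34.5 and 17.0 CPM and 5.52 and 8.80 CPM, a log2 difference of 2.60 for 40C1 and 1.18 for 40C2 from the 2 anti-TNF libraries of their own genotype. Tgtp2, of the same family, gave 2.30 and 1.20. The null/null isotype library 40C4 came close to 40C2 or passed it, with Iigp1 at 14.4 CPM, Tgtp2 at 7.81 against 9.89 CPM and Gbp5 at 30.1 CPM, and with Serpina3g at 12.4 CPM. Gbp5 was at 100 and 29.8 CPM against 13.5 to 29.7 CPM in the other 4, and Fam26f, an interferon-induced membrane gene outside the list, at 157 and 46.4 CPM against 25.04 to 45.5 CPM. Cxcl10 was at 267 CPM in 40C1 and 84.2 CPM in 40C2. The other wt/null anti-TNF libraries had 110 and 80.6 CPM and the null/null ones 66.5 and 74.2 CPM. This put 40C2 only 0.26 above the latter on the log2 scale, and the null/null isotype library 40C4 reached 103 CPM. Members of the Gbp, Tgtp and Serpina3 families share near-identical sequence and their counts may be split between copies. Counted against the other 4, 5 of the 29 were higher in both, 3 against all 10 others and 9 against 40A2 and 40A3 alone.

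The promoters of 4 of these genes, printed because the genes moved together between 40C1 and 40C2, show the letters searched in capitals: TTCNNNGAA, an IFN-γ-activated element (GAS), and GAAANNGAAA, an interferon-stimulated element (ISRE). Each is the 250 bases before the gene start, 5′ to 3′ on the gene's strand, from RefSeq GRCm38.p6, and matches on the other strand read as the reverse complement. Gbp2 (chr3:142620413-142620662, plus strand) and Cxcl10 (chr5:92348890-92349139, minus strand) are shown for the ISRE, and Gbp5 (chr3:142496684-142496933, plus strand) and Serpina3g (chr12:104235897-104236146, plus strand) for the GAS. Only the element named for a gene is in capitals. The Gbp5 window also holds the ISRE letters on the other strand, left in lower case as tttcaatttc.
Gbp2: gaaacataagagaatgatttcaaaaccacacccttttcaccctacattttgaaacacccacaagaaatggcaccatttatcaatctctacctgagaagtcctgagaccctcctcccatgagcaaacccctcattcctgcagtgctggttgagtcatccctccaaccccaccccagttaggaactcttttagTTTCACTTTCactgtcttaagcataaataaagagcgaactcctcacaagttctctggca
Cxcl10: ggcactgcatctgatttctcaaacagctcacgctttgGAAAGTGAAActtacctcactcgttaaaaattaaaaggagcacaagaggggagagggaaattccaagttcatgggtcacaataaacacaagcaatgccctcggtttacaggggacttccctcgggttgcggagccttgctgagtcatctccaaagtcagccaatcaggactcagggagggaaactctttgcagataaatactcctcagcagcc
Gbp5: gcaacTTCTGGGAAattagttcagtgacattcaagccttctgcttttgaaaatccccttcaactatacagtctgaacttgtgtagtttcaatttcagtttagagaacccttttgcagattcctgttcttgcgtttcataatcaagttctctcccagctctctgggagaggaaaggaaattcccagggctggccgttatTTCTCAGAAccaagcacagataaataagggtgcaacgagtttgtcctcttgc
Serpina3g: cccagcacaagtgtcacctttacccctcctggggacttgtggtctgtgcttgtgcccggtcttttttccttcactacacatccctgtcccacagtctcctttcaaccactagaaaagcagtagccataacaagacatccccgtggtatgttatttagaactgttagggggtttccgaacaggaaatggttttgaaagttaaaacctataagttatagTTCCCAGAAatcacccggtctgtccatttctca

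Searched on both strands in 12618 promoters of 9911 tested genes, the GAS letters were in 5.98% and the ISRE letters in 2.75%. Among the genes higher in 40C1 than in 40C2, 13.04% of 138 promoters held the GAS and 11.6% the ISRE letters. Among those higher in 40C2 the shares were 10.8% and 1.35% of 74. In the genes higher in both libraries 9.64% and 8.93% of 280 promoters held them, and in those lower in both 5.59% and 1.96% of 358. The AP-1 letters TGANTCA were in 4.67% of all promoters, and in 6.79% and 7.54% of the genes higher and lower in both. A match describes these windows and says nothing of binding.

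The genotype difference was then read in the 10 libraries that were not selected. edgeR's quasi-likelihood test called 0 genes higher and 1 lower in null/null than in wt/null (0.0077% of 12981), namely Ifngr1, with a log2 fold change of -1.43 ± 0.06 (SE) and an adjusted p of 3.8e-07. At an unadjusted p under 0.05 it gave 311 genes, DESeq2 called 14, among them Cxcl9, Gbp2, Iigp1 and Serpina3g, and limma voom called 1. Of the 169 genes higher in 40C1, 126 had a negative null/null estimate over the 10 libraries, where 49.0% of all tested genes did, and 36 were lower and 1 higher at an unadjusted p under 0.05. Of the 85 genes higher in 40C2, 58 had a higher estimate in null/null, and 5 were higher and 0 lower at that level. Within the IFN-γ-inducible list the estimate was negative for 26 of 29, with a median of -0.50. Cxcl9 had the largest, at -2.22 ± 0.35 (edgeR, unadjusted p = 0.00016, adjusted p = 0.34).

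**Figure D5:**
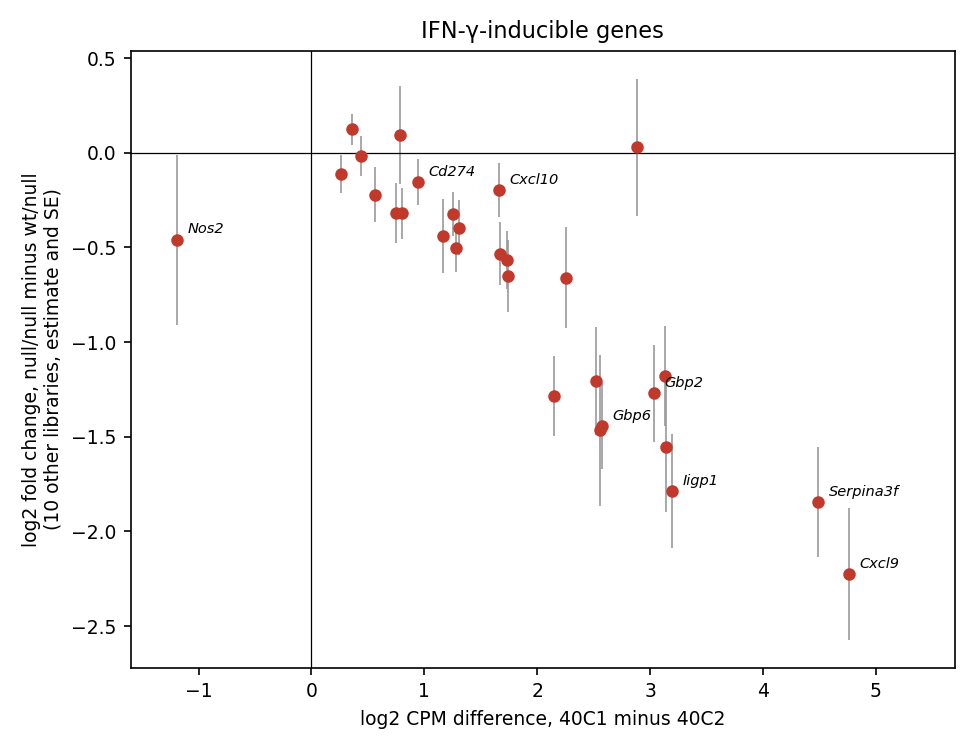
For the 29 tested IFN-γ-inducible genes, the log2 CPM difference between 40C1 and 40C2 (x axis) and the log2 fold change of null/null against wt/null in the 10 other libraries, with its SE (y axis). Cxcl9 lies at 4.76 and -2.22, and 26 of 29 genes lie below 0 on the y axis.

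Type I interferon-stimulated genes were higher in both libraries and differed less between them. Of 40 tested, 11 were higher in both and 0 lower, all 40 had a positive difference, and the median was 0.83. Irf7, the regulator that amplifies interferon production, was at 860 and 524 CPM against 240, 347, 174 and 238 CPM and at 159 to 440 CPM under isotype. Ifi44 was at 42.4 and 19.4 CPM against 5.83 to 13.2 CPM, and Ms4a4c at 274 and 187 CPM against 46.2 to 85.1 CPM. Between the 2 libraries the median was 0.50, with 3 genes higher in 40C1, and the null/null estimate was negative for all 40 over the 10 other libraries. The count of 11 was 5 with each library set against its own genotype, 7 against all 10 others and 23 against 40A2 and 40A3 alone.

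Antigen presentation genes differed modestly. In the MHC class II group, 0 of 14 were at least 2-fold higher in 40C1 than in 40C2, and 3 of 14 were higher in both: H2-Eb2, at 16.3 and 17.3 CPM against 4.62 to 6.07 CPM, H2-Oa, and H2-Ob, at 32.1 and 24.0 CPM against 11.0 to 14.9 CPM. The abundant H2-Ab1 was at 7666 and 5034 CPM against 3726 to 4714 CPM, and Cd74, the chaperone of class II molecules, at 17848 and 11028 CPM against 9575 to 12263 CPM, where 40C2 overlapped the others. For class I presentation 0 of 16 met the rule for both, with a median of 0.54, and 3 of 16 were at least 2-fold higher in 40C1 than in 40C2. They included Tap1, the peptide transporter, at 480 and 197 CPM against 125 to 205 CPM. Cd274 (PD-L1), a T cell inhibitor of the IFN-γ-inducible list, was at 88.3 and 45.8 CPM against 22.8 to 29.8 CPM.

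Part of the inflammatory monocyte genes were higher in 40C2. Of the 19 Ly6C-high monocyte genes, 7 were at least 2-fold higher in 40C2 and 2, Ly6c2 and Plac8, in 40C1. Vcan, the matrix proteoglycan of monocytes, was at 6.80 CPM in 40C1 and 38.7 CPM in 40C2, against 11.4, 18.3, 11.4 and 21.9 CPM in the other 4, so that the 2 libraries lay on opposite sides of that range. Thbs1 (thrombospondin 1) was at 318 and 879 CPM against 237 to 425 CPM, and Hp, the haptoglobin that binds free haemoglobin, at 8.11 and 23.3 CPM against 4.20 to 13.4 CPM. Cd163, the haemoglobin scavenger receptor, was at 54.6 and 158 CPM against 45.9 to 79.3 CPM. In these 3 genes 40C2 lay above the other 4 and 40C1 within their range. In the 22 resident-type macrophage genes 2 were higher in 40C2, and in the 14 iron handling genes 1. Nxpe5 was at 17.8 and 66.4 CPM against 31.4 to 47.8 CPM. Isotype libraries reached 38.5 CPM for Vcan and 23.1 CPM for Hp, close to 40C2, and 675 CPM for Thbs1 and 112 CPM for Cd163.

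Some genes lower in both were less so in 40C2, and others less so in 40C1. Of the genes lower in both, 17 were at least 2-fold higher in 40C2 and 15 in 40C1. The genes named here were higher in 40C2. Mmp9 was 2.81-fold and Slc9b2 3.10-fold higher in 40C2 than in 40C1, Spp1 was at 2610 against 1212 CPM and Fn1 at 451 against 219 CPM. Gja1 (connexin 43) was at 2.70 CPM in 40C1 and 9.36 CPM in 40C2 against 9.68 to 12.5 CPM. Ctsk differed by less than 2-fold, at 21.0 and 35.9 CPM.

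The antibody effect in the 10 other libraries gave the remaining comparison. edgeR's quasi-likelihood test called 0 of 12981 genes higher and 0 lower under anti-TNF (0%), with 342 genes at an unadjusted p under 0.05. DESeq2 called 3, C3, Irg1 and Mpp7, all lower, and limma voom called 0. Flt3 had a log2 fold change of 0.31 ± 0.10 and Cd209a of 0.49 ± 0.13, with unadjusted p of 0.0096 and 0.0039 and an adjusted p of 1.00 for both. Mmp9 was at 0.07 ± 0.68 and Ctsk at 0.04 ± 0.53. Of the 326 genes higher in both divergent libraries, 8 were higher and 10 lower at an unadjusted p under 0.05 in this test, and of the 397 lower genes 6 were higher and 1 lower. The median antibody fold change was -0.04 over the former and 0.05 over the latter, near the 0.00 of all genes. These 10 libraries share the 4 anti-TNF libraries with the description above, and the counting rule picked genes by their levels in those 4. That choice tilts the estimates down for the higher genes and up for the lower ones. The counts and medians over these genes are therefore not an independent reading of the antibody effect.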

How the data were processed

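The authors deposited whole-number read counts per gene for 12 libraries, used as deposited. Per the labels' protocols, a strand-marking NEBNext kit was used. The submitters' processing notes name bcl2fastq 2.20, STAR, Bowtie and the mm10 build. The counting tool, annotation and strand setting are not given in the sources used here. Overlapping genes and near copies may share reads in such a table.

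In R 4.3.3 with edgeR 4.0.16, filterByExpr on the 4 groups kept 12981 of 24421 genes. Levels are CPM after TMM scaling, and log2 values carry a prior count of 2. The 10 libraries other than 40C1 and 40C2 were fitted with 1 mean per group, and antibody (averaged over genotypes) and genotype (averaged over antibodies) were tested by edgeR's robust quasi-likelihood test with Benjamini-Hochberg adjustment at 0.05. limma 3.58.1 (voom with quality weights) and DESeq2 1.42.0 were alternatives. The fits were tested on simulated counts. Correlations used 100000 permutations, or all of them below 10 libraries.

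The 2 libraries and the 44 gene lists were chosen with earlier results of these data known. The lists share genes, with 826 listed names and 756 distinct ones, so their counts are not independent. Genes were named by fixed rules: the 15 largest differences each way in both libraries (mean log2 CPM of at least 2), the 10 largest each way between them (at least 3), up to 4 counted members per list, and 8 core genes and markers. Other genes, such as Adgre1, Ccr2, Igf1 and Pcna, were chosen after their values were seen. RefSeq held 23204 of the gene symbols (95.0%). Some genes are not reported here.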

Additional observations from a re-analysis of the deposited data

Results flagged for a closer look

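In the isotype arm, Ctsk in 46C5 was 1233 CPM with the next library at 698 CPM, a gap of 0.642 of the range, which exceeds Dixon's 95% critical value for 6 libraries. It was the only 1 of 8 genes checked in that arm with such a gap, and chance flags about 1 in 20 such checks if values are normally distributed. The check used CPM and pooled both genotypes. In log2 CPM 46C5 was at 10.3, the next library at 9.45 and the lowest at 8.64, a smaller gap relative to the range. In the anti-TNF arm, Cxcl9 in 40C1 was 118 CPM with the next library at 17.0 CPM, and Tnf in 40C1 was 105 CPM with 40C2 next at 42.1 CPM. Because 40C1 was selected for lying apart on a component that held these genes, both gaps are descriptions and not a test.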

How the results depend on the processing

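The 326 genes higher in both libraries became 496 with no filter and 60 at a log2 difference of at least 2, and the 397 lower genes became 60 at that difference and 250 with each library set against its own genotype. Leaving out 1 anti-TNF library at a time gave 332 to 506 higher genes, the most without 40C2, and 415 to 588 lower genes. With a library left out, fewer can overlap, so these totals do not show how many calls were kept. Of the 326 higher genes, 242 were kept without 40C1, 304 without 40C2 and 209 with each library set against its own genotype. Of the 397 lower genes, 334, 314 and 246 were kept. At a log2 difference of at least 2, 18 genes were higher in 40C1 and 11 in 40C2. The antibody count of 0 became 3 with DESeq2 and 1 (Irg1) with the title number as a replicate block, and the genotype count of 1 became 14 with DESeq2 and stayed 1 with the block. Leaving out 1 library at a time gave 1 to 3 genotype calls, with 2 without 40C3 and 3 without 40C4. The labels do not explain the title number. Deviations of the libraries titled 46 from their group means correlated at 0.0905 to 0.407 over 6 pairs, all positive but not all over 0.1, so the number was not taken as a pairing. Correlations within the 6 libraries titled 40 were 0.858 for Flt3 and Cd209a and 0.960 for Mmp9 and Ctsk, short of the adjusted threshold. For Flt3 with Mmp9 and with Ctsk, r was -0.320 and -0.281 without the 2 farthest libraries and -0.538 and -0.468 within those titled 40. Leaving out 1 library at a time gave -0.161 to 0.328 and -0.150 to 0.290, and for Cd209a with Mmp9 and with Ctsk -0.437 to 0.0705 and -0.479 to 0.0553. The cause of these shifts was not tested. Of the named-gene values 556 stayed close to the main value, judged by the spread of the other anti-TNF libraries, and 8 moved. That check did not cover whether a gene kept its call. Of the list counts 379 stayed within 1.5 times and 51 did not. Counts of 0 that stayed at 0 are among the 379, which therefore do not measure how well counts above 0 held. Genes near 0 CPM rest on few counts.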
